A study of Drosophila melanogaster with 5 samples.

Results

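A set of 9 genes that mark the blood cells (haemocytes) of Drosophila or act in melanisation were followed in poly(A) RNA-seq of whole third-instar larvae, and all 9 were found among the 17735 genes counted. They were chosen by symbol, as 6 plasmatocyte and pan-haemocyte genes (Hml, NimC1, eater, crq, srp and He) and 3 crystal cell genes (PPO1, PPO2 and lz). The tested larvae were homozygous for CG1603attP (y1w1118; CG1603attP/CG1603attP, 3 libraries), and larvae of the y1w1118 line (2 libraries) served as wild type. In CG1603attP most of the gene for the architectural zinc finger protein Mzfp1 is replaced by an attP site and a dsRed reporter driven in the eye. Both groups carry the y1 and w1118 alleles. The homozygotes came from parents that kept the deletion over the CyO balancer and die as larvae. The mutant larvae carry 1 allele and no rescue line is among the libraries, so an effect of the deletion cannot be told apart from other genetic differences between the lines. Each library was made from a pool of whole larvae, and their age within the instar is not given in the labels. All values describe whole animals, in which fewer cells of a type and less RNA per cell cannot be told apart.

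Larval haemocytes of Drosophila are mostly plasmatocytes, macrophage-like cells that take up bacteria and dying cells through surface receptors of the Nimrod and CD36 families. A small class, the crystal cells, stores prophenoloxidases, the precursors of the enzymes that oxidise phenols to melanin at wounds and on parasites. Lamellocytes, which wrap parasites, are rare in healthy larvae. Both major classes arise under the GATA factor Serpent, and the Runx factor Lozenge is needed for the crystal cell lineage.

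The deleted gene, CG1603, had 0, 0 and 3 reads in the CG1603attP libraries, against 124 and 102 reads in y1w1118. Between 9044930 and 14514277 reads per library were analysed, and 1 read was worth between 0.0668 and 0.116 CPM (read counts scaled to library size by TMM). CG1603attP replicate 1 had 86 genes at least 3 log2 units above the other libraries of its genotype. In y1w1118, replicate 2 had 83 genes that far above replicate 1, and replicate 1 had 0 above replicate 2. With 2 libraries it cannot be told which of them is the odd one. CG1603attP replicate 1 and y1w1118 replicate 2 are called the libraries that stood apart below. Of the 9 blood cell genes, 0 were among the 86 and the 83. The marker lists for other tissues also differed between the genotypes. The 7 body wall muscle markers summed to 17970 to 23671 CPM in CG1603attP and 72153 to 78847 CPM in y1w1118. The 7 midgut markers summed to 3557 to 5038 CPM in CG1603attP and 2048 to 2093 CPM in y1w1118. Of these, 3 were called higher, alphaTry the most (log2 fold change 5.08), and 4 were not called. The uncalled log2 fold changes ran from -0.52 for lambdaTry to 0.95 for Mal-A1. Of the 9 fat body markers, the larval serum protein genes Lsp1alpha, Lsp1beta, Lsp1gamma and Lsp2 stayed at or below 9.13 CPM in every library. The lipophorin gene apolpp gave 1802 to 3661 CPM in CG1603attP and 12851 to 14516 CPM in y1w1118. Only 4 of the fat body markers were tested, of which apolpp was called lower and 3 were not called. The uncalled log2 fold changes were -0.72 for Lsp1beta, -0.88 for Lsp1gamma and 1.45 for Fbp1, all from few reads. Lsp1alpha, Lsp2, Fbp2, Adh and Yp1 had too few reads to be tested. The 8 imaginal disc and proliferation markers summed to 118 to 154 CPM in CG1603attP and 163 to 165 CPM in y1w1118, a sum that hides opposite changes: 5 of the 8 were lower, with a median log2 fold change of -1.96 over the list, and nub alone was higher. The 5 were the replication and cell cycle genes PCNA, Mcm2, Mcm5, CycB and stg (log2 fold changes from -2.82 to -1.72), and nub, a wing disc gene, gave 77.9 to 92.4 CPM in CG1603attP and 17.1 to 23.2 CPM in y1w1118. The part of these tissue differences in the blood cell results was not tested.

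Of the 9 genes, 3 were lower (Hml, PPO1 and PPO2) and 1 was higher (crq) in CG1603attP larvae (edgeR, quasi-likelihood F-test, p-values adjusted by Benjamini and Hochberg over all 11045 genes tested). The remaining 5 did not pass the test. The background of calls in this comparison was high, at 30.4% of all genes tested (15.7% lower and 14.6% higher). For 8 of the 9 genes the values of the genotypes were fully separate, 7 lower and 1 higher in CG1603attP, as for 59.7% of all genes tested (30.8% lower and 28.9% higher). The median log2 fold change of the 9 genes was -1.10, against -0.011 for all genes tested. The 9 genes were chosen with earlier results of these data known. Their counts and median therefore describe these genes only and do not measure blood cell genes in general.

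**Figure D1:**
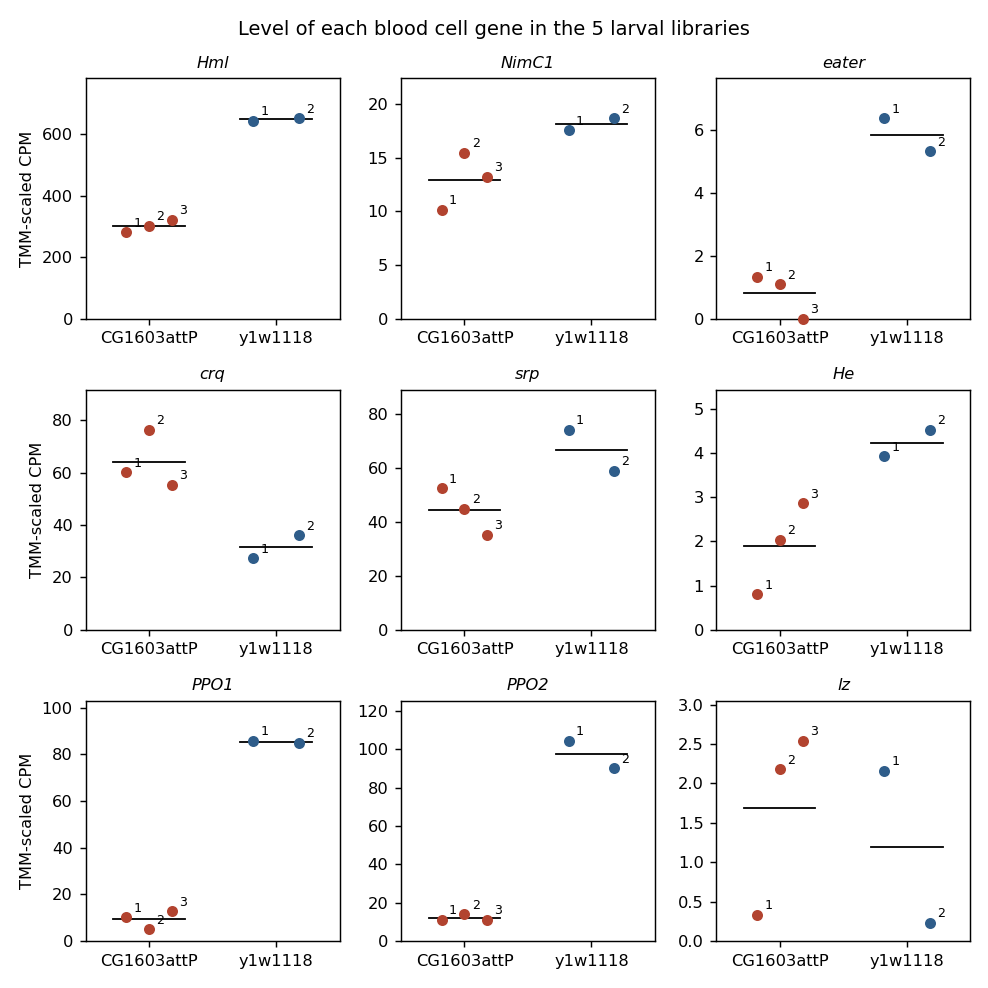
Level of each of the 9 genes in TMM-scaled CPM (y axis, from 0) in the 3 CG1603attP and the 2 y1w1118 libraries. Points are libraries with their replicate number and lines are means. PPO1 lies between 5.01 and 12.7 CPM in CG1603attP and above 85 CPM in y1w1118, while lz overlaps.

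The prophenoloxidase genes showed the largest differences of the 9 that passed the test. PPO1 (FBgn0283437) encodes a prophenoloxidase of crystal cells and is the gene of the Black cells mutant. It lies on the minus strand of 2R from 17887220 to 17889973 in the dm6 coordinates of the Ensembl annotation, within the span of Elk but without shared exon sequence. PPO1 gave 151, 69 and 120 reads in CG1603attP replicates 1, 2 and 3, against 874 and 733 reads in y1w1118. These correspond to 10.1, 5.01 and 12.7 CPM in CG1603attP and to 85.8 and 85.0 CPM in y1w1118. Every mutant library was thus far below both wild-type libraries, although the mutant libraries differed among themselves by more than counting error: the exact 95% Poisson interval of replicate 2 (3.90 to 6.34 CPM) did not reach that of replicate 1 (8.54 to 11.8 CPM). These intervals cover counting error only. Expression was 9.24-fold lower in CG1603attP (edgeR log2 fold change -3.21 with a standard error of 0.37, adjusted p = 0.00169). Elk, a potassium channel gene whose span contains PPO1, was not called (edgeR log2 fold change 0.46, adjusted p = 0.235).

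PPO2 (FBgn0033367; 2R, minus strand, 9042261 to 9044709) encodes the prophenoloxidase stored in the crystals that give these cells their name. It overlaps no other counted gene. CG1603attP replicates 1, 2 and 3 had 166, 191 and 105 reads, and y1w1118 replicates 1 and 2 had 1064 and 777. The levels were 11.1, 13.9 and 11.1 CPM in CG1603attP, against 104 and 90.1 CPM in y1w1118. The groups were widely separated, and the mutant libraries were close to each other, at 12.0 ± 1.6 CPM (SD, n = 3) against 97.3 ± 10.1 CPM (SD, n = 2) in y1w1118. Expression was 8.08-fold lower (edgeR log2 fold change -3.01 with a standard error of 0.19, adjusted p = 0.000307). Its neighbour Ance-4, 118 bp away, was not called (edgeR log2 fold change 0.12, adjusted p = 0.661). Both prophenoloxidase genes lie on 2R, the chromosome arm of CG1603. The ratio of PPO1 to PPO2 reads was 0.91, 0.36 and 1.14 in CG1603attP replicates 1, 2 and 3, against 0.82 and 0.94 in y1w1118. The genes thus stood near each other in level in 4 libraries, while replicate 2 of the mutant had the lowest ratio, at 0.36.

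Reads of lz (FBgn0002576; X, plus strand, 9284649 to 9303636), the Runx factor gene of the crystal cell lineage, were few. There were 5, 30 and 24 in CG1603attP replicates 1, 2 and 3, against 22 and 2 in y1w1118. These are 0.33, 2.18 and 2.54 CPM in CG1603attP and 2.16 and 0.23 CPM in y1w1118. The groups overlapped, and the low values were those of CG1603attP replicate 1 and y1w1118 replicate 2, called above the libraries that stood apart. Their 95% Poisson intervals (0.11 to 0.78 CPM and 0.028 to 0.84 CPM) lay below those of the other 3 libraries, whose lowest bound was 1.35 CPM. Which of the y1w1118 libraries is the odd one cannot be told. The log2 fold change of 0.47 had a standard error of 1.21 and was not called (adjusted p = 0.81, edgeR), and it was -0.38 without y1w1118 replicate 2. A difference of lz between the genotypes was therefore not detectable at this depth and with this spread. Its neighbour c11.1, by contrast, was called higher (224 ± 17.7 CPM in CG1603attP against 69.7 ± 6.52 CPM in y1w1118, edgeR log2 fold change 1.69, adjusted p = 0.000503).

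**Figure D2:**
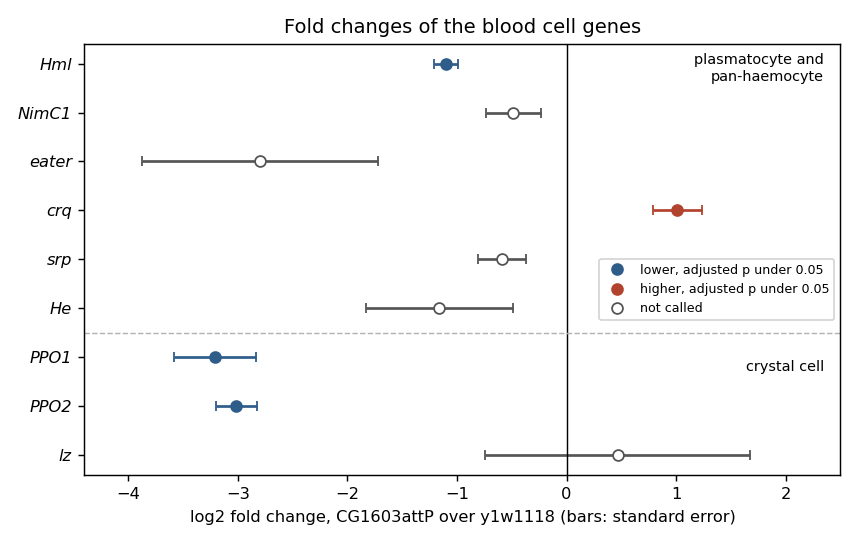
Log2 fold change of each of the 9 genes, CG1603attP over y1w1118 (x axis), with standard errors as bars. Filled points passed edgeR's test at an adjusted p of 0.05. PPO1 and PPO2 lie at -3.21 and -3.01, Hml at -1.10 and crq at 1.01.

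Among the 6 plasmatocyte and pan-haemocyte genes followed, Hml (FBgn0029167; 3L, plus strand, 13846054 to 13860001), which encodes the clotting protein hemolectin and is the common marker of mature plasmatocytes, had the most reads. It had 4196, 4160 and 3038 reads in CG1603attP and 6562 and 5610 reads in y1w1118. The levels of 280, 302 and 322 CPM in CG1603attP all lay below the 644 and 651 CPM of y1w1118, with little spread within either genotype. Expression was 2.15-fold lower (edgeR log2 fold change -1.10 with a standard error of 0.11, adjusted p = 0.000988). The neighbouring CG8745, 25 bp away, was not called (edgeR log2 fold change 0.19, adjusted p = 0.346).

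NimC1 (FBgn0259896; 2L, minus strand, 13973158 to 13976769) encodes the Nimrod receptor for bacteria that carries the P1 antigen of plasmatocytes. It was at 10.2, 15.5 and 13.2 CPM in CG1603attP, against 17.6 and 18.7 CPM in y1w1118. The mutant libraries lay just below the wild-type ones, and the difference did not pass the test (edgeR log2 fold change -0.48 with a standard error of 0.25, adjusted p = 0.204). Eater (FBgn0243514; 3R, minus strand, 27095867 to 27099679), another receptor with EGF-like repeats that binds bacteria, gave 20, 15 and 0 reads in CG1603attP and 65 and 46 reads in y1w1118. This is 1.34, 1.09 and 0 CPM, against 6.38 and 5.34 CPM, and the 0 of CG1603attP replicate 3 allows up to 0.318 CPM at a floor of 3 reads. All mutant libraries were below both wild-type libraries, but the fit gave a log2 fold change of -2.80 with a standard error of 1.08 and no call (adjusted p = 0.0976, edgeR). Eater is the gene whose call depended most on the procedure. It was called without CG1603attP replicate 3 (edgeR log2 fold change -2.23, adjusted p = 0.0165), and its adjusted p was 0.0293 with DESeq2, 0.0173 with the current quasi-likelihood fit, 0.036 with the stranded column and 0.0476 with the replicate number as a block (edgeR for the last 3). Over all alternatives it lay between 0.0165 and 0.362.

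Croquemort (crq, FBgn0015924; 2L, minus strand, 448254 to 453024), a CD36 family scavenger receptor that takes up apoptotic cells and is not restricted to haemocytes, was the one gene of the 9 called higher. It had 900, 1052 and 523 reads in CG1603attP and 279 and 311 reads in y1w1118. The levels were 60.1, 76.4 and 55.4 CPM in CG1603attP, all above the 27.4 and 36.1 CPM of y1w1118. Expression was 2.02-fold higher (edgeR log2 fold change 1.01 with a standard error of 0.22, adjusted p = 0.0156). The call rested on both wild-type libraries, and the adjusted p was 0.135 without y1w1118 replicate 1 (log2 fold change 0.82) and 0.0513 without replicate 2 (log2 fold change 1.21, edgeR). Of the 2848 bp of crq exons, 448 bp are shared with the opposite-strand gene ex, and reads from that stretch were not assigned to either gene. The ex gene itself was not called (edgeR log2 fold change 0.028, adjusted p = 0.895).

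Serpent (srp, FBgn0003507; 3R, plus strand, 15986152 to 16004085) encodes the GATA factor required for blood cells and fat body. Its levels were 52.4, 44.8 and 35.3 CPM in CG1603attP, against 74.1 and 58.8 CPM in y1w1118. The mutant libraries were below the wild-type ones without passing the test (edgeR log2 fold change -0.59 with a standard error of 0.22, adjusted p = 0.086), and DESeq2 gave an adjusted p of 0.042. Of its 5831 bp of exons, 938 bp are shared with lncRNA:CR44133, which had at most 1 read in a library. He (FBgn0028430; 2L, minus strand, 13972096 to 13972947) encodes Hemese, a transmembrane protein found on all haemocyte classes, and lies 210 bp from NimC1 in the Nimrod gene cluster. It gave 12, 28 and 27 reads in CG1603attP, against 40 and 39 reads in y1w1118, or 0.80, 2.03 and 2.86 CPM against 3.93 and 4.52 CPM. The groups did not overlap, but the test was not passed (edgeR log2 fold change -1.16 with a standard error of 0.67, adjusted p = 0.245). Reads over the 78 bp of He exons shared with NimB5 could not be assigned.

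Levels can be compared between genes only per length, so CPM were divided by the merged exon length in kb (RPKM). In CG1603attP the order was Hml (25.6 ± 1.77 RPKM, SD, n = 3), crq (22.5 ± 3.88), srp (7.57 ± 1.47), PPO2 (5.27 ± 0.70), PPO1 (3.96 ± 1.67), NimC1 (3.93 ± 0.81), He (2.82 ± 1.54), lz (0.49 ± 0.34) and eater (0.24 ± 0.22). Neighbours in this order overlapped between libraries except crq and srp, and He and lz. In y1w1118 the order was Hml (55.1 ± 0.40 RPKM, SD, n = 2), PPO2 (42.7 ± 4.44), PPO1 (36.5 ± 0.23), srp (11.4 ± 1.85), crq (11.1 ± 2.16), He (6.28 ± 0.63), NimC1 (5.51 ± 0.24), eater (1.77 ± 0.22) and lz (0.34 ± 0.39). Only srp and crq overlapped among neighbours there. The prophenoloxidase genes were thus next to Hml in y1w1118 and among the middle ranks in CG1603attP, below crq and srp. These lengths include the exon stretches of crq, srp and He (15.7%, 16.1% and 11.6%) that are shared with another gene and give no counted reads. Over the unshared length alone, an alternative chosen after the data were seen, crq stood first in CG1603attP (26.7 ± 4.6 RPKM, SD, n = 3) with Hml next to it and overlapping, srp (9.03 ± 1.76 RPKM) no longer overlapped PPO2, and the order in y1w1118 stayed as given.

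The comparison of crystal cell with plasmatocyte genes was also made within each library, as the reads of a gene in percent of the Hml reads, which does not depend on the scaling of libraries. For PPO1 this was 3.60%, 1.66% and 3.95% in CG1603attP, against 13.3% and 13.1% in y1w1118. For PPO2 it was 3.96%, 4.59% and 3.46% in CG1603attP, against 16.2% and 13.9% in y1w1118. The mean log2 ratio to Hml was lower in CG1603attP by -2.20 for PPO1 and by -1.91 for PPO2, with SDs of 0.69 and 0.20 in CG1603attP (n = 3) and of 0.020 and 0.16 in y1w1118 (n = 2). In every library of the mutant, both prophenoloxidase genes were therefore lower relative to Hml than in either wild-type library. The other plasmatocyte and pan-haemocyte genes did not share one direction relative to Hml. NimC1 was higher, at 3.62%, 5.12% and 4.11% of the Hml reads in CG1603attP against 2.73% and 2.87% in y1w1118, and crq likewise, at 21.4%, 25.3% and 17.2% against 4.25% and 5.54%. Eater was lower in every mutant library, like PPO1 and PPO2, at 0.48%, 0.36% and 0% in CG1603attP against 0.99% and 0.82% in y1w1118. The genotypes overlapped for srp, at 18.7%, 14.8% and 10.96% in CG1603attP against 11.5% and 9.04% in y1w1118, and for He, at 0.29%, 0.67% and 0.89% against 0.61% and 0.70%. A lower ratio to Hml was thus not limited to the crystal cell genes. No p is given for these ratios, since the genes were chosen with earlier results of these data known. The 10 splits of 5 libraries into 3 and 2 could also not give an exact permutation p below 0.1. The reads of lz were 0.12%, 0.72% and 0.79% of the Hml reads in CG1603attP and 0.34% and 0.036% in y1w1118, so the genotypes overlapped. From so few reads it cannot be told whether lz shares the direction of PPO1 and PPO2.

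**Figure D3:**
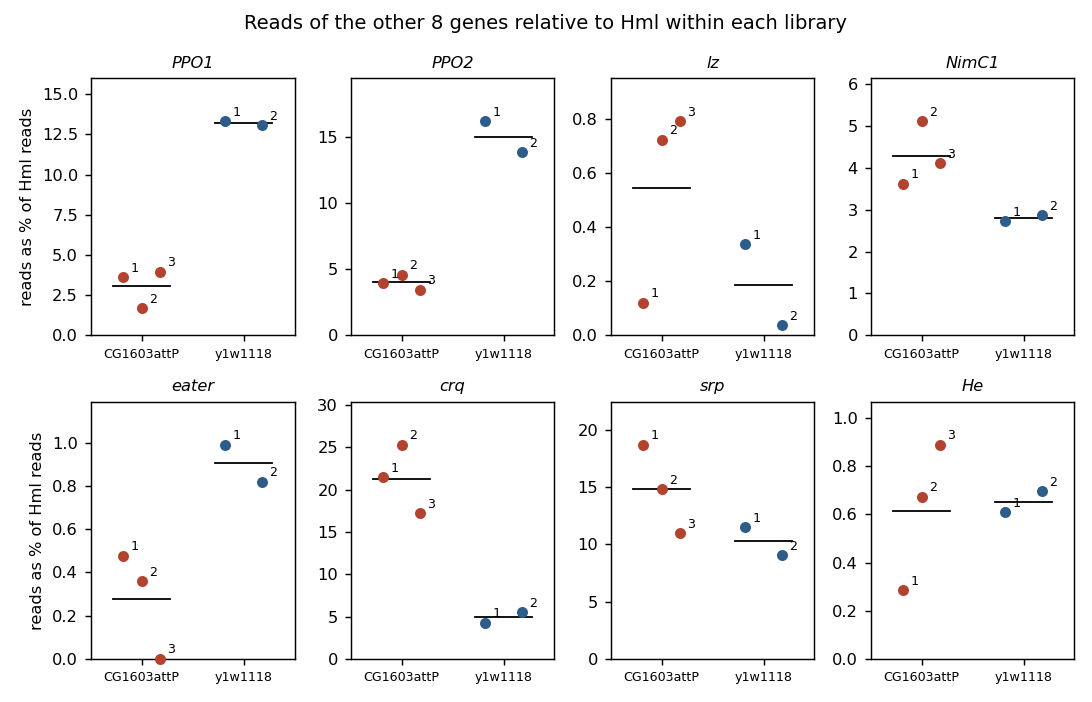
Reads of the other 8 blood cell genes in percent of the Hml reads of the same library (y axis, from 0, with its own scale for each gene). PPO1 and PPO2 stay below 5% in the 3 CG1603attP libraries and above 13% in the 2 y1w1118 libraries, and eater is also lower in CG1603attP. NimC1 and crq are higher there, and lz, srp and He overlap.

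Other genes of these cells did not share one direction. The list counts below stand beside 15.7% lower and 14.6% higher over all genes tested. The lists, too, were chosen with earlier results of these data known. Calls over all genes also fell when a y1w1118 library was left out. Of 8 further genes linked to crystal cells, 1 was lower (12.5%) and 3 were higher (37.5%) in CG1603attP, with a median log2 fold change of 0.041. The higher ones were peb, which encodes the zinc finger protein Hindsight (198 ± 20.9 CPM in CG1603attP, SD, n = 3, against 53.7 ± 8.4 CPM in y1w1118, SD, n = 2, log2 fold change 1.88), fok (log2 fold change 0.98) and CG17109 (log2 fold change 0.57). The lower one was N, which encodes the Notch receptor that promotes the crystal cell fate (69.9 ± 8.27 CPM in CG1603attP against 107 ± 4.82 CPM in y1w1118, log2 fold change -0.62). The genes peb and N act in many larval tissues, and whole larvae do not show which cells the reads came from. Without y1w1118 replicate 1 this list held 1 higher and 0 lower genes, and without replicate 2 it held 3 and 0.

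Of 18 tested genes for other phagocytosis and scavenger receptors and thioester proteins, 6 were lower (33.3%) and 3 higher (16.7%). The median log2 fold change was -0.39. Tep1, which encodes a thioester protein secreted as an opsonin, had 2, 3 and 0 reads in CG1603attP and 405 and 478 reads in y1w1118. Its pooled level was 359-fold lower (95% counting interval 153 to 1107; adjusted p = 0.00031, edgeR), the largest fitted change of the genes in the lists. The Nimrod gene NimC2 was higher from very few reads, with 20, 15 and 20 reads in CG1603attP against 1 and 1 in y1w1118, a ratio of 13.5 (95% counting interval 3.58 to 115; adjusted p = 0.0427, edgeR). Tep2 (log2 fold change -1.63) and the scavenger receptor gene Sr-CI (log2 fold change -1.47) were lower. The other genes that passed the test were chosen for mention after their values were seen. Tep3, Tep4 and Mcr, all of the thioester protein family, were lower (log2 fold changes -0.93, -1.23 and -0.64). The engulfment receptor gene drpr (192 ± 40.8 CPM in CG1603attP against 92.2 ± 6.96 CPM in y1w1118, log2 fold change 1.06) and pes, like crq of the CD36 family (266 ± 31.5 CPM against 96.8 ± 0.65 CPM, log2 fold change 1.46), were higher. Without y1w1118 replicate 1 the list held 2 lower genes and 1 higher, and without replicate 2 it held 3 and 1.

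The list of other plasmatocyte products holds secreted proteins and proteases but also the receptor gene Pvr and the factor genes ush and zfh1. In it, 8 of 14 tested genes were lower (57.1%) and 2 higher (14.3%), with a median log2 fold change of -0.76. Pvr, ush and zfh1 were not called (log2 fold changes 0.37, 0.27 and 0.21). Tig encodes the matrix protein tiggrin, which also belongs to muscle attachments (235 ± 34.7 CPM in CG1603attP against 941 ± 67.1 CPM in y1w1118, log2 fold change -2.0). Col4a1 and vkg encode the collagen IV chains, which the fat body makes as well (log2 fold changes -1.67 and -1.52). Cht5, a chitinase gene of the moult, was also lower (log2 fold change -1.98). The higher genes, named here after their values were seen, were the lysosomal protease genes cathD and CtsL1 (log2 fold changes 1.31 and 1.26). The remaining lower genes of this list, Pxn, Ppn, SPARC and fon, lay between -1.48 and -0.60, and were likewise chosen after their values were seen.

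Among 7 tested lamellocyte genes, 3 were higher (42.9%) and 1 was lower (14.3%) in CG1603attP, with a median log2 fold change of 0.72. Higher were puc, a target and inhibitor of JNK signalling (257 ± 15.1 CPM in CG1603attP against 111 ± 14.8 CPM in y1w1118, log2 fold change 1.21), atilla, which encodes the L1 antigen (93.0 ± 21.1 CPM against 46.4 ± 6.90 CPM, log2 fold change 1.0), and the kinase gene msn (log2 fold change 0.72). Lower was cher, which encodes filamin (log2 fold change -1.16). The other tested genes, ItgaPS4, ItgaPS5 and mys, were not called (log2 fold changes 1.79, -2.13 and 0.34). Whole larvae do not show which cells the reads of these genes came from. PPO3, the prophenoloxidase gene of lamellocytes, was near background, with 0, 12 and 0 reads in CG1603attP and 2 and 6 reads in y1w1118, and was not tested. DESeq2 called 5 of the 7 higher, as did the fit without CG1603attP replicate 3, and the fits without either y1w1118 library called 1.

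Of 19 tested genes of the melanisation cascade and the Toll branch next to it, 4 were lower (21.1%) and 1 higher (5.26%). The median log2 fold change was -0.38. Lower were Tep1 (above), spz, which encodes the Toll ligand Spatzle (9.50 ± 1.45 CPM in CG1603attP against 31.0 ± 3.88 CPM in y1w1118, log2 fold change -1.70), Pu, which encodes GTP cyclohydrolase I of the tetrahydrobiopterin pathway (log2 fold change -1.59), and the serpin gene Spn77Ba (log2 fold change -0.80). Higher was Spn27A, the serpin that restrains the melanisation protease cascade (93.6 ± 19.7 CPM in CG1603attP against 54.8 ± 11.2 CPM in y1w1118, log2 fold change 0.77). It was named after its values were seen and lost its call without CG1603attP replicate 1 and without either y1w1118 library. The tested proteases of the list were not called, and MP1, all of whose exon sequence is shared with Vps24, had 0 reads and was not tested. Hayan and Sp7, which act upstream of prophenoloxidase cleavage, had log2 fold changes of -0.22 (standard error 0.21, adjusted p = 0.485, edgeR) and -0.091 (standard error 0.24, adjusted p = 0.809, edgeR). For grass, a protease of the Toll branch, all mutant libraries were below the wild-type ones (15.1, 8.21 and 14.1 CPM in CG1603attP against 22.3 and 24.6 CPM in y1w1118), without a call (edgeR log2 fold change -0.91, adjusted p = 0.0648). The values of psh overlapped (log2 fold change -0.94), and DESeq2 called 6 genes of the list lower.

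In the list of lymph gland and haemopoiesis regulators, 2 of 13 tested genes were lower (15.4%) and 3 higher (23.1%). The lower share was close to the 15.7% over all genes tested. The median log2 fold change was 0.12. The cytokine gene upd3 gave 20.6, 21.6 and 9.85 CPM in CG1603attP, against 3.34 and 3.13 CPM in y1w1118 (edgeR log2 fold change 2.42 with a standard error of 0.43, adjusted p = 0.00743). Its receptor gene dome (log2 fold change 1.08) and kn, which encodes the Collier factor of the lymph gland niche (log2 fold change 1.01), were also higher. Lower were Sr-CI (above) and Antp (log2 fold change -0.82), Antp being named after its values were seen. Without y1w1118 replicate 1 this list held 1 higher and 0 lower genes, and without replicate 2 it held 0 of either.

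**Figure D4:**
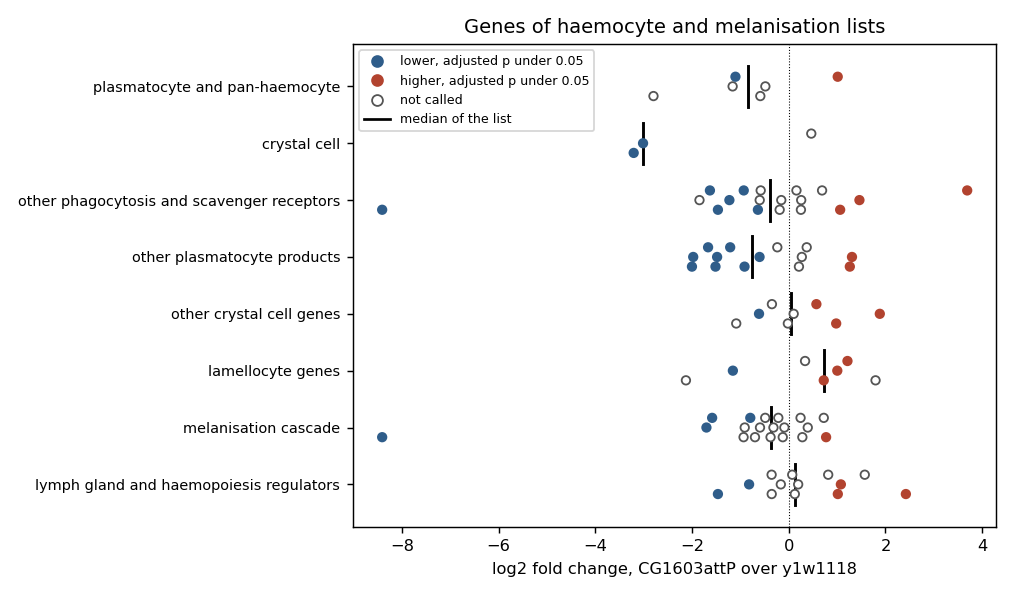
Log2 fold change, CG1603attP over y1w1118 (x axis), of each tested gene (points) in the 9-gene set and in 6 further lists of haemocyte and melanisation genes. Filled points passed edgeR's test, and black bars are list medians, which run from -0.76 for other plasmatocyte products to 0.72 for lamellocyte genes among the further lists. Tep1 lies at -8.41.

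Without both CG1603attP replicate 1 and y1w1118 replicate 2, a setting chosen after the data were seen, the calls were 4 lower and 1 higher for the receptors and thioester proteins, 7 and 2 for the plasmatocyte products, 0 and 2 for the further crystal cell genes, 1 and 1 for the lamellocyte genes, 3 and 0 for the melanisation cascade, and 1 and 1 for the lymph gland regulators. The same 4 of the 9 blood cell genes were called, 3 lower and 1 higher.

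The genes whose levels over the 5 libraries ran most like those of Hml were sought among 8765 tested genes outside the lists, by the root mean square difference of centred log2 CPM. They were ND-42 (0.037), Nup160 (0.038) and P5CDh1 (0.045), whose log2 fold changes were -1.09, -1.18 and -1.17. ND-42 was at 115, 128 and 139 CPM in CG1603attP and 278 and 264 CPM in y1w1118. For PPO2 they were Jon66Ci (0.117), CG5177 (0.136) and lncRNA:CR34335 (0.157), with log2 fold changes of -3.01, -2.84 and -2.79. Jon66Ci was at 40.8, 64.8 and 45.2 CPM in CG1603attP and 425 and 385 CPM in y1w1118. These genes were picked for likeness over the same 5 libraries, so fold changes near those of Hml and PPO2 follow from the choice. Shared regulation was not tested.

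**Figure D5:**
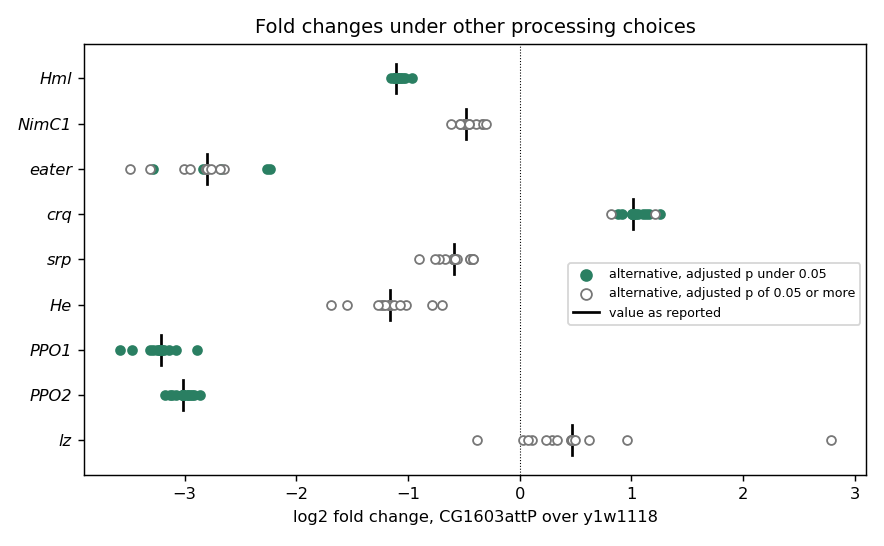
Log2 fold changes of the 9 genes, CG1603attP over y1w1118 (x axis), as reported (black bars) and under 17 other processing choices (points, filled where the adjusted p was under 0.05). Hml, PPO1 and PPO2 were filled at all 17, crq at 15, eater at 5 and srp at 1.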

How the data were processed

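RNA-seq of 5 libraries was used, 3 of CG1603attP and 2 of y1w1118, grouped by the sample titles. Reads were trimmed (cutadapt) and aligned (STAR, dm6) by the authors, and the deposited values are raw, unnormalized read counts of each gene from the GeneCounts mode of STAR. Neither tool versions nor the gene annotation are given in the sources used here. A read that falls on several genes is not counted, which lowers overlapping genes. The unstranded counts were used. The 4 summary lines were left out, of which unmapped reads were 23.8% to 30.0% of a library, as were 138 ribosomal RNA genes.

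Counts were filtered with filterByExpr (minimum count 10, minimum total 15), scaled by TMM and tested with glmQLFit in its legacy form and glmQLFTest (edgeR 4.0.16, R 4.3.3) at an adjusted p of 0.05 over 11045 genes. Standard errors were taken from F (size of the log2 fold change over its root). Positions and exon lengths came from Ensembl release 115 (BDGP6.54). The fit was also run on simulated independent counts with a common dispersion for all genes. Such counts lack the differences between replicates seen here, so that run does not bear on them. The replicates count as biological per the study's methods. With 2 wild-type libraries the spread in that genotype rests on 1 difference.

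The 9 genes and the lists were chosen with earlier results of these data known. Of 128 listed symbols, 125 were found. The rule named the 9 genes, CG1603, at most 4 called genes per list by size of the change, and the 3 genes most like Hml and PPO2. Alternatives were other scalings and filters, DESeq2 1.42.0, other fits, a stranded column, ribosomal RNA genes kept, the replicate block and each library left out. Promoter and protein sequences were not analysed here.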

Additional observations from a re-analysis of the deposited data

How the results depend on the processing

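Across 17 alternatives, Hml, PPO1 and PPO2 kept their direction and their call (log2 fold changes from -1.15 to -0.96, from -3.58 to -2.89 and from -3.18 to -2.87), also without both libraries that stood apart, which was chosen after seeing the data. The number of the 9 genes called lower was 5 with DESeq2, which added eater and srp, and 3 to 4 with a library left out. The number called higher was 0 to 1 with a library left out, since crq lost its call without y1w1118 replicate 1 or replicate 2. The uncalled lz changed sign without y1w1118 replicate 2 (log2 fold change -0.38, and 2.79 without replicate 1). Over all genes, 1410 to 3540 were called with a library left out (796 to 1802 lower and 596 to 1738 higher), against 3353, and without both CG1603attP replicate 1 and y1w1118 replicate 2 there were 1599 (992 lower and 607 higher), of which 1530 were among the 3353. Leaving out 1 wild-type library leaves a lone one, which is assumed to vary like the mutant libraries. In the 10 further lists, tissue markers included, 28 to 55 genes were called with a library left out (19 to 35 lower, 9 to 22 higher), against 52 (33 lower, 19 higher), and without both libraries that stood apart 12 were higher. The lower log2 ratio of PPO2 to Hml was -2.20 in the stranded column, against -1.91, and -2.03 to -1.80 with a library left out. For PPO1 it was -2.43 to -1.81. Scaling by library size only moved the median log2 fold change of all genes to 0.13 and the split of calls to 2080 higher and 1424 lower; relative to that shift the 9 genes kept their directions. The cause of these changes was not tested. The replicate number as a block called 2967 genes (2703 among the 3353) and 5 of the 9 genes, eater being added. Libraries with the same number in both genotypes did not deviate together (correlations across genes -0.51 and -0.27). Deviations cancel within each genotype, so these values are not independent and cannot settle whether the number is a pairing. CG1603attP replicate 1 and y1w1118 replicate 2, the libraries that stood apart, did deviate together (0.51), which is the mirror of the first value since deviations from a mean of 2 libraries are opposite. Low reads limit lz, eater and He, where 1 read was up to 0.116 CPM.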
